A study of Mus musculus with 31 samples.

Results

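H3K4me1, the monomethyl mark on lysine 4 of histone H3, was compared between wild type mice given TAK-418 and wild type mice given vehicle. The comparison holds 7 of the 31 libraries of the series and 538 of the 11752 regions that the authors listed as different in 8 comparisons. Its members are the 3 TAK-418 and 4 vehicle H3K4me1 libraries of wild type mice, with the peak list of each, and every region of the authors' differential list for that contrast. All 7 mice were C57BL6, carried intact Kmt2d (KMT2D+/+ in the labels) and were 30 days old when the hippocampus was taken. Mice of the first group received TAK-418, which inhibits the demethylase LSD1, by gavage for 2 weeks at a daily dose of 1 mg/kg, beginning at 2 weeks of age; the others received only methylcellulose, the vehicle. Each library came from 1 mouse, and the mark was pulled down from sonicated nuclear lysate of the whole hippocampus with an Abcam antibody (ab8895), so the cell types of the tissue are mixed. The heterozygotes set beside them, 4 with TAK-418 and 4 with vehicle, carried 1 copy of Kmt2d interrupted by a βGeo cassette. In bulk tissue, fewer cells that carry the mark and less mark per cell cannot be told apart. The list's name gives no mark. It was taken to be H3K4me1 because the TAK-418 cells hold 3 scores.

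H3K4me1 lies on enhancers and on the shoulders of active promoters. It is written mainly by the methyltransferases KMT2C and KMT2D, and LSD1, the product of Kdm1a, removes mono- and dimethyl groups from the same lysine as part of the CoREST complex. In brain tissue enhancer H3K4me1 is usually far more widespread than promoter H3K4me3 and differs between neurons and glia.

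At 5 genes the RefSeq promoter window, 250 bases before to 50 bases after a start, overlapped a listed region, in 6 of 32817 windows. For 4 of these genes 1 window is printed, as a place where the list touches a start site. The window of the remaining gene is not shown, nor is a second Gm40237 window with 88 bases in the listed region. Each is given 5′ to 3′ on the gene's strand in build GRCm38.p6, with bases inside the listed region in capitals.
Sprr2a2, chr3:92250397-92250696, plus strand: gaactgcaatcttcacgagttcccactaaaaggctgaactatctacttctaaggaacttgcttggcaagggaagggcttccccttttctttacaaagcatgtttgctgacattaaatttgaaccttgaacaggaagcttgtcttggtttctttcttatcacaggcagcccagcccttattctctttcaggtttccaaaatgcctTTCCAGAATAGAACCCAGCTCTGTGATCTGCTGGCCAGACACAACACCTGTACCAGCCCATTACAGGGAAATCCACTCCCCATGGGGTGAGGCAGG
Duxf3, chr10:58233040-58233339, minus strand: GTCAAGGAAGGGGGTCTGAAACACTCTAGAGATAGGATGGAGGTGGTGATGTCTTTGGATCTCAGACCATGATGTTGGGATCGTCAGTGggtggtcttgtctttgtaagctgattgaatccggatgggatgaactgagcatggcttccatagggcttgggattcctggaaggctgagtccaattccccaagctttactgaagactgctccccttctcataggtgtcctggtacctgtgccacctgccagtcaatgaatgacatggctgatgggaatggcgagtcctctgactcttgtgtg
Gm33862, chr11:3136826-3137125, plus strand: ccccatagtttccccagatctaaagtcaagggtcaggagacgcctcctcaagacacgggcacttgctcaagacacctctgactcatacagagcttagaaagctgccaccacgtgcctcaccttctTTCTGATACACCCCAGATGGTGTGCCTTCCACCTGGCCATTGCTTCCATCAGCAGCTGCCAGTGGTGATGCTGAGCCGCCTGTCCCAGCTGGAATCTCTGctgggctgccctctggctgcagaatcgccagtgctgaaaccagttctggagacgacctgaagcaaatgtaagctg
Gm40237, chr4:118547156-118547455, plus strand: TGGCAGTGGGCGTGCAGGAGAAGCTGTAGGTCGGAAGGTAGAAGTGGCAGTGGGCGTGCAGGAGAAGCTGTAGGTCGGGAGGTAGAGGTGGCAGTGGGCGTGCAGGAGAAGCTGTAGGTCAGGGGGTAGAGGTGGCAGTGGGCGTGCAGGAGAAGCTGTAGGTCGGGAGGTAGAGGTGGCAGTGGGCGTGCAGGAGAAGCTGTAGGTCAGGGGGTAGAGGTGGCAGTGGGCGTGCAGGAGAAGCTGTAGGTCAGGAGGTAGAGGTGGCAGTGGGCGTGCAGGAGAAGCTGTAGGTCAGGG
The region at Sprr2a2 covered 96 of the 300 bases, that at Duxf3 89, that at Gm33862 100 and that at Gm40237 all 300. The Gm40237 window repeated itself, with 96.1% of its bases equal to the base 44 positions on, against 31.5% at the best spacing in the Sprr2a2 window. It had 62.7% G and C and 10 CpG sites, the Sprr2a2 window 46.7% and 1 CpG site, and the median of all windows was 52.7% and 7 CpG sites. The motif TATAAA, sought on both strands, was in none of these 4 windows and in 13.6% of all windows.

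Few peaks were called in any library, and the number did not separate the groups. The TAK-418 libraries had 456, 369 and 236 peaks, against 400, 192, 271 and 88 in the vehicle libraries. The vehicle library with 88 peaks was the lowest of all 7, and the other values overlapped. The means were 354 ± 111 peaks with TAK-418 and 238 ± 132 with vehicle (SD, n = 3 and 4), a ratio of geometric means of 1.65 (two-sided exact permutation p = 0.343, adjusted p = 0.5 over 5 measures per library). With 35 ways to split 3 and 4 libraries, the smallest two-sided p is 0.0571, so no single measure could reach 0.05. Peaks covered 532 ± 223 kb with TAK-418 and 406 ± 223 kb with vehicle (exact p = 0.4). The median fold enrichment of a library's peaks, the authors' own value per peak, was 5.05 ± 0.376 with TAK-418 and 5.67 ± 0.772 with vehicle (exact p = 0.343). Median peak width was 653 ± 143 bp with TAK-418 and 665 ± 120 bp with vehicle (exact p = 0.8). Without the vehicle library of 88 peaks the log10 difference in number was 0.0935, against 0.22 with all 7. The barcodes in the labels fall into what were read as 2 index sets, an inference, and within them the difference was 0.33 (2 TAK-418 and 1 vehicle library) and 0.0464 (1 and 3).

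**Figure D1:**
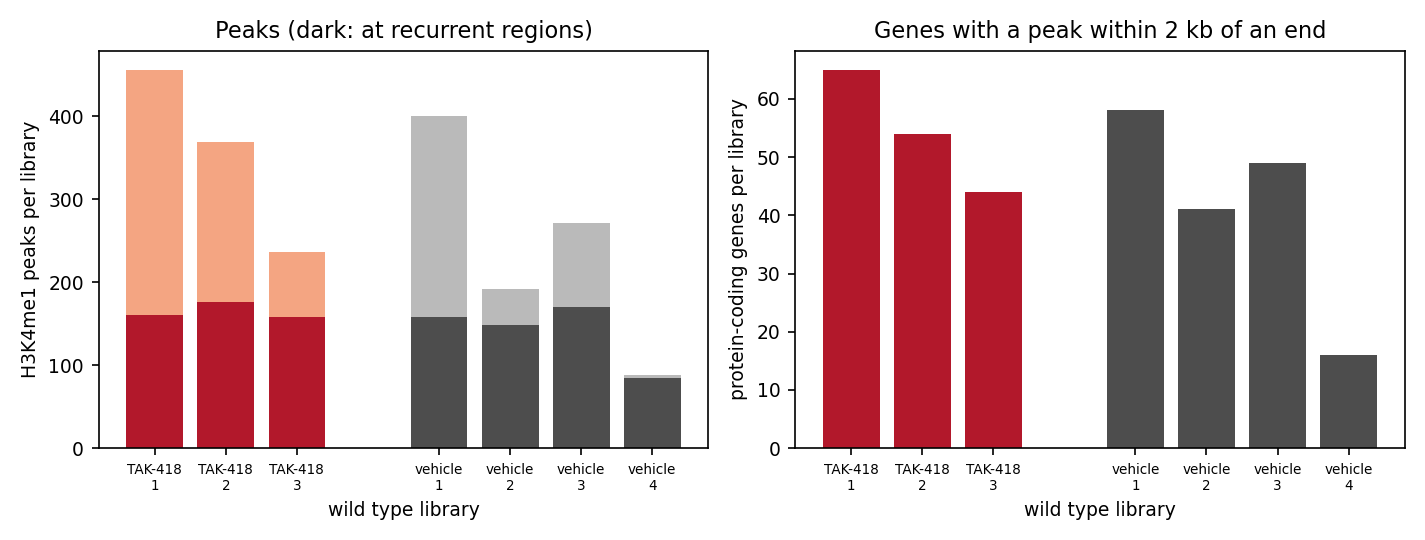
Left, number of H3K4me1 peaks per wild type library, with the dark part of each bar counting peaks at recurrent regions; right, number of protein-coding genes that have an end 2 kb or less from a peak. TAK-418 libraries (red) had 456, 369 and 236 peaks and vehicle libraries (grey) 400, 192, 271 and 88, so the groups overlap.

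Peaks at genes were few in all 7 libraries. Ends of protein-coding genes lay 2 kb or less from a peak for 65, 54 and 44 genes with TAK-418 and for 58, 41, 49 and 16 with vehicle, out of 21900 (54.3 ± 10.5 with TAK-418 and 41 ± 18.1 with vehicle, exact p = 0.343). The log10 difference was 0.157, and 0.04 without the vehicle library of 88 peaks. Of 17 gene lists, which cover hippocampal neurons, glia, vascular, choroid plexus and blood cells, synapse genes, H3K4 writers and erasers and immediate early genes, 16 had no member with a peak at an end in any of the 7 libraries. The exception was Wls, which carries Wnt proteins to the cell surface and had a peak in all 7. That peak lay 746 bp from an end, in a merged region of 269 bp that is recurrent as defined below. Fold enrichment there was 63.4, 68.5 and 29.0 with TAK-418 and 73.7, 43.9, 46.2 and 37.1 with vehicle. Whether it is a site of the mark was not tested. Neither Kmt2d nor Kdm1a had a peak at an end in any of the 7 libraries. The defining markers of the hippocampal cell types were thus all without a peak at an end, and peaks elsewhere in or near them were not counted. The labelled tissue could not be checked from peaks at gene ends.

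Some peaks recurred across the series. Regions called in 8 or more H3K4me1 libraries and also in 8 or more H3K4me3 libraries of the series are termed recurrent, and there were 198 of them, covering 427.7 kb. Recurrent regions held 35.1%, 47.7% and 66.9% of the peaks of the TAK-418 libraries and 39.5%, 77.1%, 62.7% and 95.5% of those of the vehicle libraries. Merging the 7 peak lists gave 719 regions, of which 372 had a peak in 1 library and 66 in all 7, and all 66 were recurrent. The strongest, chr2:98666226-98667346, had a fold enrichment of 15065, 15543 and 14478 with TAK-418 and of 14100, 14734, 15419 and 13749 with vehicle. No source used here says whether problem regions were removed, and whether recurrent regions are sites of the mark was not tested.

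Peaks in every TAK-418 library and no vehicle library were found at 3 merged regions. Of 254 merged regions called in 2 to 5 of the 7 libraries, 3 (1.18%) had an unadjusted two-sided Fisher's exact p under 0.05. It was 0.0286 for each, the smallest that 3 against 4 libraries can give. After adjustment 0 passed (adjusted p = 0.864). A few regions at that smallest p cannot pass among 254, so the 0 was largely set by the design. None (0 of 190) had an unadjusted p under 0.05 when a peak had to cover 50% or more of the merged region, nor did any (0 of 44) with only peaks of −log10 q of 5 or more. Both of the chromosome 1 regions lay inside Mroh2a, a gene for a HEAT-repeat protein, at chr1:88238381-88240838 and chr1:88244080-88246560. Fold enrichment there was 4.29, 4.52 and 4.47 in the TAK-418 libraries at the first and 4.45, 5.36 and 4.86 at the second, with no peak in the vehicle libraries. The last, chrX:169993191-169994944, was recurrent and lay 2393 bp from an end of Mid1, a microtubule-binding ubiquitin ligase gene near the X chromosome's pairing region, with 6.13, 4.61 and 6.20 in the TAK-418 libraries. No merged region had a peak in every vehicle library and in no TAK-418 library.

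The authors' differential list held 287 regions higher and 251 lower with TAK-418, counted from the group means of the deposited scores. Regions were 100 to 2700 bp wide with a median of 350 bp. Each had 1 score per library, with no stated normalization. Since the list does not say which library a score came from, scores are given in the order deposited. Fitted with limma on log2(score + 1) and adjusted over all 538 regions, 0 passed an adjusted p of 0.05, the smallest being 0.28. At an unadjusted p under 0.05 there were 52 (9.67%), of which 37 (6.88%) were higher and 15 (2.79%) lower. Scores did not overlap between groups at 56 regions that were higher (10.4%) and 17 that were lower (3.16%). These regions were selected by the authors on the same 7 libraries, so the counts describe the list and give no independent evidence of a change.

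Direction differed between regions with and without a called peak, and with the level of the vehicle score. Of the 323 listed regions that overlapped a peak in at least 1 of the 7 libraries, 253 (78.3%) were higher with TAK-418. Of the 215 with no peak in any of them, 34 (15.8%) were higher and 181 lower. Median scores of the regions with a peak were 135, 112 and 100 with TAK-418 and 118, 77, 95 and 57 with vehicle. For the regions with no peak they were 120, 182 and 147 with TAK-418 and 262, 197, 191 and 149 with vehicle, so that the first vehicle score stood above all others. At vehicle means under 100, 157 of 180 regions with a peak and 30 of 52 with no peak were higher. At means of 100 to under 1000 the counts were 93 of 135 with a peak and 4 of 131 with no peak, and at 1000 or more 3 of 8 with a peak and 0 of 32 with no peak. The vehicle mean that sets these levels is also the denominator of the ratio. A low vehicle mean by itself thus favours a higher ratio and a high one a lower ratio, so the trend with level is partly built in. The peaks come from the same libraries as the scores, and score level and peak calling were not told apart by a test.

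**Figure D2:**
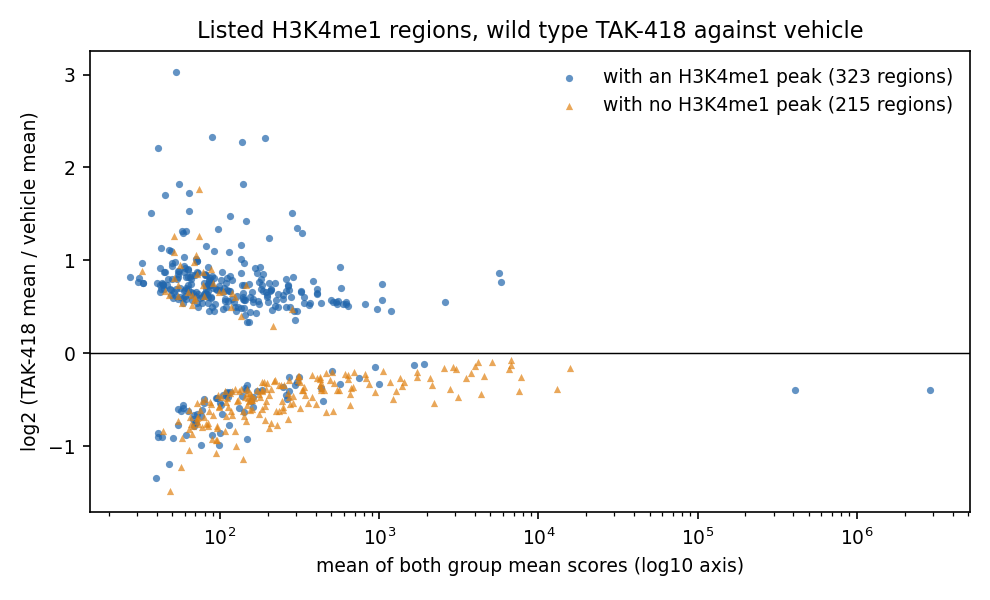
Each point is 1 of the 538 listed regions, with the mean of both group mean scores on a log10 axis and the log2 ratio of the TAK-418 mean to the vehicle mean; circles are regions with an H3K4me1 peak in at least 1 of the 7 libraries and triangles those with none. Regions with no peak lie mostly below 0 (181 of 215), and those with a peak mostly above it (253 of 323).

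The 32 lower regions with no peak and a vehicle mean of 1000 or more had ratios between 0.687 and 0.948. Of these 32, 0 had an unadjusted limma p under 0.05, beside 52 (9.67%) of all 538 listed regions. Outside genomic clusters 178 regions had no peak and were lower. At 137 of those the first vehicle score was the highest of the 7 scores, at 170 it exceeded every TAK-418 score, at 159 the second TAK-418 score was the highest of its group, and at 117 the fourth vehicle score was the lowest of its group.

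Such high scores without a called peak were seen at or near genes of many kinds. At Xrcc4, a gene of DNA end joining, chr13:89868201-89868600 scored 11672, 19202 and 13901 with TAK-418 and 22405, 19869, 11660 and 12552 with vehicle. At Homer1, a postsynaptic scaffold that binds metabotropic glutamate receptors, chr13:93355401-93355800 scored 5163, 8107 and 6085 with TAK-418 and 9572, 8077, 5384 and 5238 with vehicle. In both the groups overlapped across most of their range, and limma gave a log2 difference of −0.13 ± 0.40 (SE) at Xrcc4 and −0.11 ± 0.39 at Homer1. Both estimates turned positive, to at most 0.05, without the first vehicle score or the first TAK-418 score. Sec61g, a subunit of the channel through which proteins enter the endoplasmic reticulum, had a region 29117 bp from an end at chr11:16537601-16537950, with 2162, 3538 and 2214 with TAK-418 against 4253, 3587, 4167 and 2587 with vehicle. Scarb2, a lysosomal membrane protein gene, had one within the gene at chr5:92501701-92502000, with 1476, 2304 and 1605 with TAK-418 against 3195, 2623, 3185 and 1442 with vehicle. At Trim30a, a ubiquitin ligase gene of inflammatory signalling, where 1 library of each group had a peak, the region listed with a p of 0 by the authors scored 276963, 446043 and 338608 with TAK-418 and 546400, 462111, 563662 and 288736 with vehicle, a ratio of 0.761. None of these 5 separated the groups.

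Scores on the Y chromosome divided the mice, and the groups differed in how many had them. The median score over 11 regions of that chromosome below 90 Mb was 418, 0 and 264 with TAK-418 and 0, 257, 5 and 0 with vehicle. Sex is not given in the labels. Within the mice with Y chromosome scores (2 with TAK-418, 1 with vehicle), 79.4% of 296 autosomal and X-linked regions with a peak were higher, and 17.1% of 211 with no peak. Within the mice without them (1 with TAK-418, 3 with vehicle) the shares were 75.3% with a peak and 52.1% with no peak, values that rest on a single treated score. Without the first vehicle score the share at regions with no peak was 24.2%.

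Clusters of neighbouring regions made up 282 of the list. A cluster was taken, after the values had been seen, as 5 or more listed regions with gaps of at most 500 kb, which gave 15. Of the 282 regions, 219 (77.7%) were higher and 271 overlapped a peak. Outside clusters, 42 of 52 regions with a peak and 26 of 204 with none were higher. Chromosome 1 held 124 of the 538 regions, chromosome 11 held 55 and chromosome 4 held 51.

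**Figure D3:**
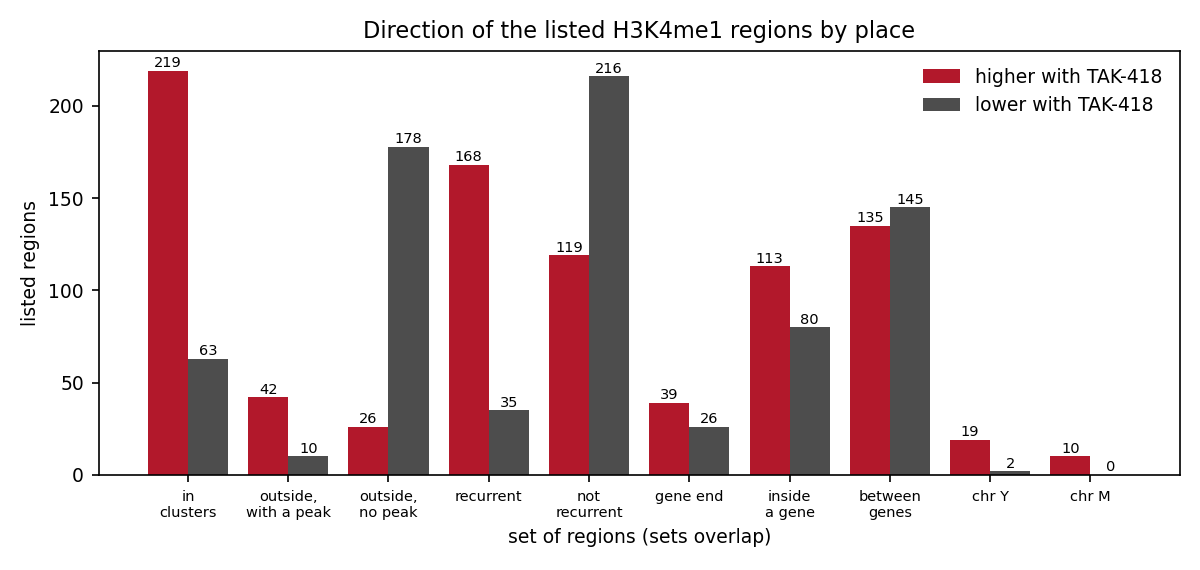
Number of listed regions with a higher (red) or lower (grey) mean score with TAK-418, for sets of regions that overlap one another. Regions in clusters were mostly higher (219 against 63), and regions outside clusters with no peak mostly lower (178 against 26).

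The cluster with most regions lay over the Sp100, Sp110 and Sp140 genes, which encode interferon-inducible proteins of nuclear bodies, at 84962751 to 86004650 on chromosome 1. Of its 92 regions 69 were higher and 68 recurrent, with ratios between 0.545 and 3.26 and a median of 1.57. Median scores there were 111.5, 113 and 83 with TAK-418 and 103.5, 61.5, 79 and 46 with vehicle. Of the 92, the groups did not overlap at 13 higher regions and 1 lower, beside 10.4% higher and 3.16% lower over all 538 listed regions. In Sp110, chr1:85609601-85610100 scored 274, 178 and 165 with TAK-418 against 151, 103, 154 and 150 with vehicle, every treated score being above every vehicle score. A neighbour inside Sp110 and Sp140, chr1:85593901-85594150, went the other way, with 49, 54 and 40 against 95, 68, 62 and 56.

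The next cluster spanned the Ugt1a genes, which encode glucuronosyltransferases of bilirubin and drug clearance, with Mroh2a and Hjurp, whose product places the centromeric histone CENP-A. It held 15 regions at 88212251 to 88301550 on chromosome 1, 11 of them higher. Inside Mroh2a, chr1:88230151-88230450 scored 86, 81 and 119 with TAK-418 against 28, 61, 40 and 63 with vehicle, and chr1:88242851-88243150 scored 69, 60 and 112 against 24, 44, 37 and 52. The groups were apart at both, and the second lies between the Mroh2a peaks that were called in every TAK-418 library and no vehicle library. Near Ugt1a10, chr1:88220501-88222250 was lower, with 456, 542 and 519 against 860, 561, 551 and 576.

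At Sfi1, a centrin-binding gene of spindle assembly on chromosome 11, 41 of 42 regions were higher and 38 recurrent, with a median ratio of 1.43. The groups did not overlap at 2 of the 42, both higher, beside 10.4% higher without overlap over all 538 listed regions. The region in the Gm33862 promoter window, within this cluster, scored 216, 97 and 126 with TAK-418 against 125, 92, 128 and 54 with vehicle, where the groups overlapped. At Duxf3, a member of the double homeobox family whose mouse genes act at the onset of embryonic transcription, 7 of 8 regions were higher and all 8 recurrent. The region in the Duxf3 window printed above scored 168, 132 and 153 with TAK-418 against 116, 127, 63 and 43 with vehicle, without overlap. Duxf3 and its neighbours are near-identical copies, and no source used here says how reads were split among copies. The Gm40237 window lay in a recurrent region that scored 779, 549 and 645 against 556, 305, 434 and 486, with overlap.

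The zinc finger genes of distal chromosome 4 gave a mixed picture. Of 30 regions at 145829951 to 147642450, 15 were higher and 15 lower, and 6 were recurrent. Zfp992, of this family, had 75, 99 and 87 with TAK-418 against 45, 34, 31 and 30 with vehicle at chr4:146466151-146466450. A second region of the same gene, chr4:146450251-146450600, had 58, 92 and 63 against 122, 165, 101 and 126. The groups did not overlap at either, in opposite directions, with limma log2 differences of 1.3 ± 0.35 and −0.85 ± 0.37 (SE; adjusted p = 0.357 for both). Zfp600 had 30, 36 and 22 against 70, 72, 47 and 79 at chr4:146175251-146175500, a ratio of 0.438. Zfp978 was higher, with 76, 115 and 94 against 58, 56, 49 and 28. Reads of these related genes may not be uniquely placed.

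Mitochondrial DNA contributed 10 regions and the Y chromosome 21. All 10 mitochondrial regions were higher, with ratios between 1.53 and 2.37. Their medians overlapped, at 209, 238 and 102 with TAK-418 against 259, 59, 117.5 and 50.5 with vehicle. The groups were apart at 0 of the 10, beside 10.4% higher and 3.16% lower without overlap over all 538 listed regions. Of the 21 regions placed on the Y chromosome, 19 were higher. In the proximal cluster of 8, median scores were 401, 0 and 242.5 with TAK-418 against 0, 255, 2.5 and 0 with vehicle. In the distal cluster beyond 90 Mb, all 10 were higher. Its medians did not divide the mice in that way, with 106.5, 76.5 and 95 against 57.5, 49, 33 and 29.5. There chrY:90770351-90770700 had the smallest p of the list, with 100, 47 and 135 against 4, 8, 3 and 31 (limma log2 difference 3.32 ± 0.68, adjusted p = 0.28). Its ratio of group means, 8.17, was the highest of the 538.

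Away from recurrent regions, on the autosomes and X, genes were named by rule from 216 regions, 82 higher and 134 lower, within 100 kb of an end. Klf10, a TGF-β-inducible zinc finger factor, had the smallest p of the authors among the higher ones. Its region, chr15:38308451-38308800, lay 7740 bp from an end and scored 130, 95 and 117 with TAK-418 against 80, 33, 12 and 9 with vehicle. All treated scores exceeded all vehicle scores, the ratio was 3.40, and limma gave 2.22 ± 0.65 (SE, adjusted p = 0.357). No peak was called there in any of the 7 libraries. Wdr63, which encodes a dynein intermediate chain of motile cilia, had 60, 34 and 107 with TAK-418 against 25, 10, 2 and 21 with vehicle inside the gene at chr3:146101201-146101450, the largest ratio among named regions at 4.62. That region also lies within the span of Mcoln3, and 1 TAK-418 library had a peak there.

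Sprr2a2, a small proline-rich protein gene of the skin's cornified envelope, had listed regions in opposite directions at its start and beyond its other end. The region in the promoter window printed above, chr3:92250601-92250850, scored 72, 64 and 65 with TAK-418 against 39, 22, 34 and 30 with vehicle. The region 1597 bp from an end, chr3:92258901-92259250, scored 49, 71 and 32 against 76, 130, 105 and 91. Groups were apart at both, with ratios of 2.14 and 0.504, and limma gave 1.10 ± 0.36 and −1.02 ± 0.40 (SE; adjusted p = 0.357 for both). Sprr2a2 belongs to a family of near-identical copies, so its reads are uncertain.

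The other named regions that were higher without overlap had ratios between 1.99 and 2.89. Near A530032D15Rik, in the Sp100 cluster, chr1:85072001-85072300 scored 79, 137 and 68 with TAK-418 against 48, 31, 31 and 21 with vehicle. C130026I21Rik, nearby, had 72, 93 and 83 against 47, 37, 22 and 27, where 3 TAK-418 and 0 vehicle libraries had a peak over the region itself. It lies near the edge of a longer stretch, chr1:85268642-85290611, that had a peak in all 7. Vmn1r2, a pheromone receptor gene of the vomeronasal organ, had 69, 61 and 80 against 34, 18, 39 and 41 at chr4:3176851-3177100. Gm40367 had 54, 43 and 67 against 20, 33, 15 and 9. Regions named by the authors' p alone overlapped between groups, among them Tusc3, a subunit gene of the N-glycosylation enzyme (151, 68 and 158 against 117, 9, 58 and 50), and Cntnap5c, of the contactin-associated protein family (121, 110 and 291 against 125, 75, 107 and 76).

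**Figure D4:**
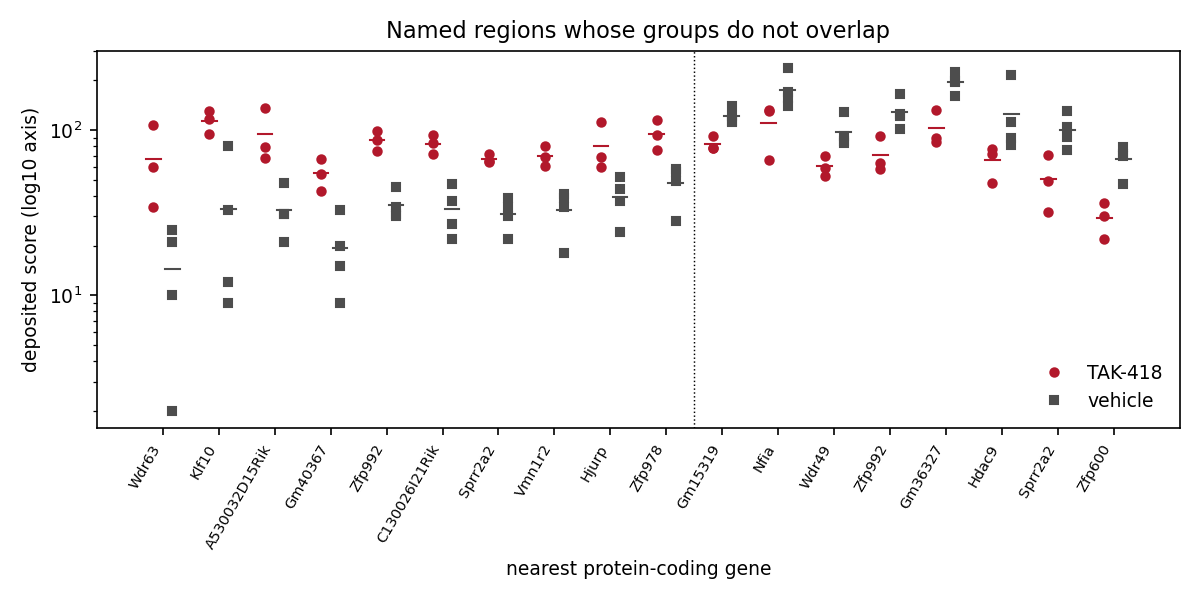
Deposited scores per library (log10 axis) at the named regions whose groups do not overlap, higher with TAK-418 left of the dotted line and lower right of it; circles are TAK-418, squares vehicle, and bars group means. The ratio of means is highest at Wdr63 (4.62) and lowest at Zfp600 (0.438).

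Lower regions without overlap were named in the same way. Nfia, a transcription factor of gliogenesis and hippocampal development, was the nearest gene to a region with 66, 130 and 133 with TAK-418 against 238, 156, 139 and 169 with vehicle at chr4:98155251-98155600, which is 36375 bp from an end. The highest treated score, 133, was close to the lowest vehicle score, 139. Hdac9, a class IIa histone deacetylase gene, had 48, 72 and 77 against 217, 90, 81 and 112 inside the gene at chr12:34073601-34073950, where the lowest vehicle score again lay close to the highest treated one. Limma gave −0.71 ± 0.40 at Nfia (adjusted p = 0.357) and −0.83 ± 0.43 at Hdac9 (adjusted p = 0.357). Without TAK-418 score 1 the value at Nfia was −0.38, and without vehicle score 1 that at Hdac9 was −0.53. Wdr49 had 59, 53 and 70 against 129, 92, 86 and 83. Cadm2, a synaptic adhesion gene that falls outside the naming rule and was picked after its values were seen, had 53, 140 and 67 against 162, 151, 264 and 188 inside the gene at chr16:67016151-67016500, a ratio of 0.453. None of Nfia, Hdac9, Wdr49 and Cadm2 had a peak in any of the 7 libraries.

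Some of the gene lists drawn up for this tissue had members with a listed region. Over all protein-coding genes, 226 of 21900 (1.03%) had one as nearest gene or inside. The share was 13.3% for synaptic adhesion and scaffold genes, 7.14% for voltage-gated ion channel genes and 8.33% for vascular genes. It was 5% for immediate early genes and 4.5% for neurogenesis genes. These shares rest on 1 to 4 genes each, and gene length was not taken into account. Of 30 synaptic adhesion and scaffold genes 4 did, Dlgap2 higher and Homer1, Ctnnd2 and Ctnna2 lower. Dlgap2, a postsynaptic scaffold, had 301, 115 and 283 with TAK-418 against 111, 153, 158 and 67 with vehicle. Ctnnd2, the neuronal delta-catenin, had 4813, 8050 and 5545 against 9706, 8217, 4209 and 5543, and Ctnna2, the neuronal alpha-catenin, had 5324, 8619 and 5805 against 10511, 8665, 3312 and 5292. At all 3 the groups overlapped, and limma put Ctnna2 at 0.03 ± 0.46 while its means gave a ratio of 0.948. Of 28 voltage-gated ion channel genes, 2 had a region, the calcium channel subunit gene Cacnb4 (72, 69 and 60 against 188, 92, 37 and 60) and Kcnip4, a modulator of potassium channels (85, 217 and 205 against 421, 305, 219 and 211). Of 12 vascular genes it was Flt1, the receptor for VEGF (175, 260 and 91 against 250, 165, 221 and 240), and of 22 neurogenesis genes Nfia. Of 20 immediate early genes it was Homer1, which is in the synaptic list too. The other 12 lists had 0 genes with a region, among them excitatory and inhibitory neurons, astrocytes, the oligodendrocyte lineage, microglia, choroid plexus and ependyma, blood cells, glutamate and GABA receptors, H3K4 methyltransferase complexes, and LSD1-CoREST with the H3K4 demethylases.

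Heterozygotes are other mice with no shared control, and their TAK-418 list overlapped part of the wild type list. Of the 538 wild type regions 276 (51.3%) overlapped 255 of the 545 regions (46.8%) of the heterozygote TAK-418 list. Both were higher at 93, both lower at 29, wild types higher and heterozygotes lower at 56, and wild types lower and heterozygotes higher at 98. Regions with no wild type peak were mostly opposite, 89 of 108 being lower in wild types and higher in heterozygotes. Regions with a peak were higher in both genotypes at 80 of 168, and higher in wild types but lower in heterozygotes at 54. Of the rest, 25 were lower in both and 9 were lower in wild types and higher in heterozygotes. Whether the genotypes differ was not tested region by region. For the number of peaks, the log10 difference between TAK-418 and vehicle was 0.22 in wild types and 0.0344 in heterozygotes (exact permutation p = 0.411 for the difference).

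**Figure D5:**
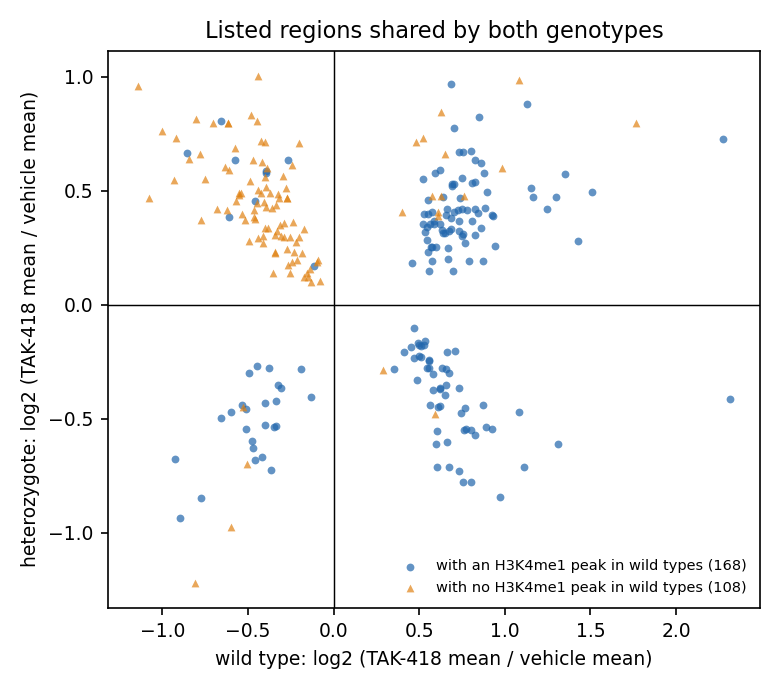
Log2 ratio of the TAK-418 mean to the vehicle mean in wild types (horizontal) and heterozygotes (vertical) for the 276 wild type regions that overlap the heterozygote list. Most regions with no wild type peak (triangles, 108) lie at upper left, lower in wild types and higher in heterozygotes (89).

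Scores of the heterozygotes varied widely at several of these regions. At Hdac9 the heterozygotes scored 82, 172, 148 and 69 with TAK-418 against 188, 7, 35 and 92 with vehicle, and at Nfia 161, 207, 86 and 95 against 213, 1, 78 and 118. At Scarb2 they scored 2914, 2888, 1964 and 1251 against 3477, 55, 521 and 2358. The vehicle scores in positions 2 and 3 were the lowest of the 8 at Hdac9, Nfia and Scarb2, while the vehicle score in position 1 was the highest. Klf10 was higher in both genotypes, with 92, 160, 185 and 126 against 64, 79, 98 and 83 in heterozygotes (ratio 1.74, limma 0.76 ± 0.27, adjusted p = 0.441, groups overlapping). Vmn1r2 had 83, 143, 98 and 92 against 92, 45, 40 and 33 (ratio 1.98, adjusted p = 0.441, overlapping). Cntnap5c was also higher in both (heterozygote ratio 1.54, overlapping). The named regions near C130026I21Rik and, at chr4:146478401-146479100, near Zfp992 were higher in wild types but lower in heterozygotes. Heterozygote regions overlapped these in part, with ratios of 0.654 (groups overlapping) near C130026I21Rik and 0.558 (groups apart) near Zfp992. Cadm2 had 279, 178, 116 and 96 against 198, 7, 19 and 120, a ratio of 1.95 and opposite to its 0.453 in wild types. In the heterozygote list the groups were apart at 14 higher regions (2.57%) and 21 lower (3.85%). A single region of the 276 shared ones, near Csf2ra on chromosome 19, had groups apart and higher in both genotypes. It was picked after its values were seen, with ratios of 1.57 in wild types and 1.58 in heterozygotes. Groups were apart and higher at 10.4% of the whole wild type list and 2.57% of the heterozygote list. Whether a single shared region is more than chance would give was not tested. In the heterozygote list 0 of 545 regions passed an adjusted p of 0.05 in limma, and 47 (8.62%) had an unadjusted p under 0.05.

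The H3K4me3 list of the same contrast was made from 4 TAK-418 and 4 vehicle mice, the 7 mice described here and 1 more given TAK-418. Of the 538 regions 261 (48.5%) overlapped 247 of the 2780 (8.88%) regions in the H3K4me3 list of the same comparison. Both marks were higher at 106, both lower at 5, H3K4me1 higher and H3K4me3 lower at 38, and H3K4me1 lower and H3K4me3 higher at 112. At Nfia H3K4me3 averaged 189.5 with TAK-418 and 126 with vehicle, a ratio of 1.5 beside 0.625 for H3K4me1. At A530032D15Rik both were higher, with H3K4me3 at 94.8 and 55.5, a ratio of 1.71. An H3K4me3 peak of a wild type library lay over 325 of the 538, and over all 203 that are recurrent.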

How the data were processed

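ChIP-seq peak lists of 7 libraries, 1 mouse each, and the authors' list of differential regions were analysed. The submitters' processing notes name assembly mm10 and, without version or role, bedtools, MACS and MACS2. Aligner, input control, calling threshold and the program behind the differential list are not given in the sources used here. Peaks carried the authors' fold enrichment, a ratio, and their −log10 p and −log10 q. The list held the authors' −log10 p, none under 1.3, and per library 1 integer score, deposited with no stated normalization. No read counts were used, so depth is unknown. Of the 8 differential lists, 5 were not used.

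Genes came from the RefSeq table of GRCm38.p6, which gives no strand, so distances are to either end of a gene; promoters came from RefSeq windows. Library measures were compared as log10 values by exact permutation (two-sided), merged regions by Fisher's exact test and scores by limma on log2(score + 1), with Benjamini-Hochberg adjustment. Limma and Fisher steps were also run on simulated data. The simulated spread and peak presence were set by hand, so those runs do not show how either step performs on these libraries. Named were, outside recurrent regions on autosomes and X, per direction the 10 regions with the smallest p of the authors within 100 kb of a protein-coding gene end, the 10 without overlap and with the largest ratio (higher mean at least 20), and every gene of the lists with a region. A p written as 0 was ranked first. Members, gene lists and clusters were chosen with earlier results of these data known. Tools were Python 3.11.15, numpy 2.4.6, pandas 2.3.3, scipy 1.17.1, matplotlib 3.10.9, R 4.3.3 and limma 3.58.1. Alternatives changed the peak threshold, pseudocount, score filter, scaling, Y chromosome class and libraries left out.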

Additional observations from a re-analysis of the deposited data

Results flagged for a closer look

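The region near Pramel4, of a gene family active in germ and early embryo cells, at chromosome 4, 144048401 to 144048750, had 294, 430 and 371 with TAK-418 and 668, 623, 663 and 308 with vehicle. The vehicle score of 308 stood apart from the other 3, with a gap of 0.875 of the group's range. It was the only one of 46 groups of 4 vehicle values tested, and chance flags about 1 in 20 groups.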

How the results depend on the processing

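Library measures could not reach an exact p of 0.05 in this design, so only their direction is given. The covered length turned to −0.0978 in log10 within index set 2. The median fold enrichment turned to 0.0141 with only peaks of −log10 q of at least 5. Median width turned to 0.00657 with those peaks and to 0.0846 within index set 1, and ranged from −0.0446 to 0.0488 with 1 library left out. In each of these the cause was not tested. The count of listed regions past an adjusted p of 0.05 was 1, not 0, with a pseudocount of 10, and 0 to 1 with 1 score left out, the 1 being without vehicle score 4 (smallest adjusted p 0.00637). At an unadjusted p under 0.05 there were 108 with scores scaled to equal library medians, and 21 to 107 with 1 score left out, the highest without vehicle score 1. The share with a positive limma difference was 35.8% without recurrent regions and 53.3% to 58.2% with 1 score left out. Among regions with no peak, the share higher was 52.1% in mice without Y chromosome scores, and 15.8% to 24.2% with 1 score left out; these alternatives were chosen after seeing the data. With 1 score left out, the limma log2 difference ranged from −0.327 to 0.0332 at Xrcc4, from −0.286 to 0.0537 at Homer1, from −0.347 to 0.0548 at Ctnnd2, from −0.594 to 0.177 at Cacnb4 and from −0.285 to 0.270 at Ctnna2, and Ctnna2 was at −0.11 with scaled scores. The other named regions kept their sign in the alternatives run. The Fisher count was 0 of 190 with 50% of the merged region covered and 0 of 44 with peaks of −log10 q of at least 5; with a library left out no region could pass, so those fits say nothing of stability, and 249 regions shared 50% or more of their length with the heterozygote list. No paired analysis was possible because the groups compared share fewer than 2 replicate numbers in the labels. The limits are 3 against 4 mice, unknown depth, unlabelled scores and a list selected on the same libraries.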
